A study of Mus musculus with 22 samples.

Results

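The photoreceptor transcription factors are 10 genes known for their part in photoreceptor fate: Crx, Nrl, Nr2e3, Otx2, Neurod1, Prdm1, Rorb, Rxrg, Thrb and Esrrb. They were chosen by name, with no threshold on their signal in these cells. Of the 18194 genes with a probe set of their own on the array, 9 were among them, represented by 15 probe sets. Nr2e3, an orphan nuclear receptor, had no probe set listed for it and was not analysed here.

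Each array held the amplified cDNA of 1 mouse retinal cell, picked by capillary after papain dissociation. There were 13 ganglion cells, whose axons form the optic nerve: 3 from embryonic day (E) 12.5, 1 from E13.5, 2 from E14.5, 3 from E15.5 and 4 from the day of birth, P0. There were 6 amacrine cells, inhibitory interneurons, of which 1 came from E16.5 and 5 from P0. The 3 photoreceptors were the P0 cells H1 and E1 and a rod from an adult. No genotype, mutation or treatment is given for any cell, and the labels give the CD1 strain for 9 of the 22 cells, H1 and E1 among them. Cells were named after profiling, and whether any of these factors served to name them is not stated, so no difference in a factor between types can count as independent support for the naming.

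Photoreceptors arise from retinal progenitors that switch on the homeodomain factor Otx2, which in turn activates its relative Crx. Crx drives the genes of the phototransduction cascade in rods and cones. Nrl, a basic leucine zipper factor of the Maf family, sets the rod fate and acts through Nr2e3, which holds cone genes down, while Thrb and Rxrg work in cones. Rorb acts upstream of Nrl, Prdm1 steers Otx2-positive precursors away from the bipolar fate, and the basic helix-loop-helix factor Neurod1 serves both photoreceptors and amacrine cells.

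Because Crx and Otx2 recognise the same short homeodomain motif, and Nrl a motif of the Maf kind, the bases just upstream of 3 of the factors that were high in the P0 photoreceptors are shown. The window of Nrl lies inside the annotated gene and is not shown. Each sequence is the 250 bases before the outermost annotated start in RefSeq, build GRCm38.p6, read 5′ to 3′ on the gene's strand. Capitals mark TAATCC, the homeodomain motif of the Otx and Crx kind, and TGCTGA, an arm of the Maf element bound by Nrl. Both strands were searched, and matches on the other strand read as the reverse complement. The nuclear receptor arm AGGTCA was searched in the same way.
Crx, chr7:15879956-15880205, minus strand: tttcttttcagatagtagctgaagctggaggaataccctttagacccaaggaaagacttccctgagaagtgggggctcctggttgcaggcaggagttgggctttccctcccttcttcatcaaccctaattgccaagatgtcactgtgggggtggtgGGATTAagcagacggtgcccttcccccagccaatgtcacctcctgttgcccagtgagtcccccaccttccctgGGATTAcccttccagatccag
Neurod1, chr2:79456637-79456886, minus strand: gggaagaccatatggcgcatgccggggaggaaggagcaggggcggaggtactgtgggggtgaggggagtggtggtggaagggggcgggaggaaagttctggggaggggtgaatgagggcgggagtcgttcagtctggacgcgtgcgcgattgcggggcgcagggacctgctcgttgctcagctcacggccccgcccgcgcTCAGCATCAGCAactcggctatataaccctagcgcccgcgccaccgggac
Otx2, chr14:48667645-48667894, minus strand: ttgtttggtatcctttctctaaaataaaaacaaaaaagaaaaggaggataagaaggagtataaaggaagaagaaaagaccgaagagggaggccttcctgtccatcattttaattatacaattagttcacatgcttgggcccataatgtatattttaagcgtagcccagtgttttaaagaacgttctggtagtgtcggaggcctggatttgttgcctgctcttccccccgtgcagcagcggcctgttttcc

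The Crx stretch held TAATCC at 94 and at 21 bases before the start, and 6.25% of the 32851 RefSeq windows of the same length held this motif at least once. The Neurod1 stretch held the Maf-type arm TGCTGA at 50 and 44 bases before the start, side by side, and 16.1% of all windows held it. The Otx2 stretch held none of the 3 motifs. Of 3 further annotated Otx2 starts, whose windows overlap the gene and are not shown, one had TGCTGA at 24 bases and another TAATCC at 211 bases before it. The Nrl window, which is not shown either, held none of the 3 motifs. The nuclear receptor arm, found in 14.0% of all windows, was in none of the 3 stretches shown. A match of 6 letters describes the sequence and is not evidence of binding.

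Signals are the authors' MAS5 values on a linear scale, raised to a floor of 200 (log2 7.64) before taking log2. A gene is called detected in a cell at a signal of 1000 or more (log2 9.97). The number of genes detected in a cell ran from 1518 to 4352, and from 2235 to 3056 in the photoreceptors. The median signal over all probe sets was 192 on the array of the adult rod and 198 on that of E16.5 amacrine cell J6, against 32.9 to 79.1 on the other arrays. The defining markers fitted the labels in the ganglion cells, with 6 to 9 of 9 ganglion markers detected, and in the photoreceptors, with 7 to 11 of 11. In the amacrine cells 3 to 5 of 8 amacrine markers were detected. Cells of the same type and stage were averaged into 9 samples for the tests, since no animal is named. In the main fit the p-values rest on a spread between samples taken from a trend over all genes by signal. They do not measure the spread of a gene's own samples.

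**Figure D1:**
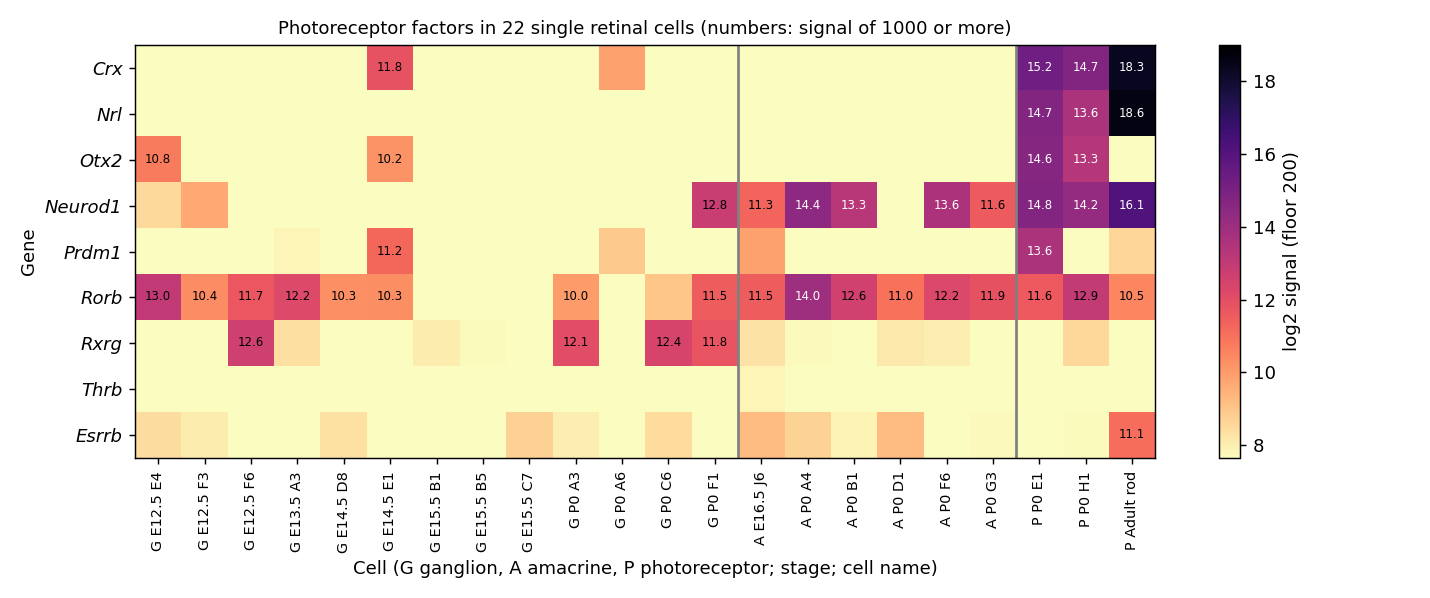
Signal of the 9 measured factors in all 22 cells, as log2 of the signal with a floor of 200; rows are genes, columns are cells grouped as ganglion (G), amacrine (A) and photoreceptor (P), and a number is printed where the signal was 1000 or more. Crx and Nrl were high in all 3 photoreceptors, Neurod1 also in 5 of 6 amacrine cells and Rorb in cells of every type, while Rxrg was detected in 4 ganglion cells and Thrb in no cell.

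Crx was detected in all 3 photoreceptors, with a signal of 324718 in the adult rod, 38339 in E1 and 27164 in H1. In the 13 ganglion cells its median was 68.8, but E14.5 ganglion cell E1 stood at 3612 and P0 ganglion cell A6 at 943. The 6 amacrine cells lay between 11.9 and 84.4. The lowest photoreceptor was therefore well above every ganglion and amacrine cell.

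Crx was higher in photoreceptors than in the mean of ganglion and amacrine cells by 8.73 ± 1.39 on the log2 scale (standard error; 2 photoreceptor samples against 5 and 2; limma adjusted p = 3.02e-07). This comparison used its first probe set, 1418705_at. The second, 1449185_at, gave 20962 in E1, 7932 in H1 and 68.0 in the adult rod, and at most 251 in any ganglion or amacrine cell. The probe sets thus parted in the adult rod, which was the highest of all cells on one and under the floor on the other. Tested without a filter on low values, the second probe set differed by 2.99 ± 1.32 and did not pass (limma adjusted p = 0.356).

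Otx2, which acts before Crx, was detected in both P0 photoreceptors, at 25552 in E1 and 10262 in H1. Its signal in the adult rod was 30.6, under the floor. Outside photoreceptors it reached 1775 in E12.5 ganglion cell E4 and 1156 in E14.5 ganglion cell E1, while the other 17 cells lay at 155 or less. The adult rod thus sat among the ganglion and amacrine cells, and the samples of the types overlapped.

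The photoreceptor difference of Otx2 was 2.94 ± 0.98 and did not pass (limma adjusted p = 0.0874), with an SD of 4.48 between the P0 and the adult sample. Without the adult rod, which left only the P0 photoreceptor sample, the difference was 6.11. It passed without ganglion cell E1 of E14.5, at 3.06 (limma adjusted p = 0.0472), or without E4 of E12.5, at 3.04 (adjusted p = 0.0465). These are the 2 ganglion cells with Otx2 detected. Of the 22 omissions of a single cell, 19 left Otx2 not passing.

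Nrl, the factor that sets the rod fate, had a signal of 405003 in the adult rod, 26769 in E1 and 12550 in H1. The 13 ganglion cells lay between 4.92 and 204 and the 6 amacrine cells between 12.6 and 106. No cell outside the photoreceptors came near the detection level, so the groups were wholly apart. Nrl was higher in photoreceptors by 8.75 ± 1.35 (limma adjusted p = 1.48e-07), and it entered the test through the 3 photoreceptors alone.

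Neurod1 was high in photoreceptors and amacrine cells alike. On its main probe set, 1426412_at, the adult rod stood at 72217, E1 at 27967 and H1 at 18965. The amacrine cells had 21653 in A4, 12075 in F6, 9776 in B1, 3015 in G3, 2532 in J6 and 146 in D1. Amacrine cell A4 was above photoreceptor H1, and D1 was the only amacrine cell in which Neurod1 was not detected. The array of B1 needed rescaling, so its value rests on that step.

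Among ganglion cells, P0 cell F1 had a Neurod1 signal of 7198, E12.5 cell F3 had 844, and the median was 69.4. The mean log2 signal was 15.32 in photoreceptors (SD 1.17, 2 samples), 11.70 in amacrine cells (SD 0.54, 2 samples) and 8.10 in ganglion cells (SD 0.64, 5 samples), and these samples did not overlap. The photoreceptor difference was 5.42 ± 1.44 (limma adjusted p = 0.0138). The ganglion minus amacrine difference was -3.60 ± 1.46, which did not pass over all genes (unadjusted p = 0.0139, adjusted p = 0.999).

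The second Neurod1 probe set, 1426413_at, had the same order of types. It gave 6831 to 18999 in the 3 photoreceptors, a median of 1120.5 in the amacrine cells and a median of 21.3 in the ganglion cells. In the fit of single probe sets its photoreceptor difference was 4.81 (limma adjusted p = 0.0227). The photoreceptor call was lost without amacrine cell J6, at 5.22 (adjusted p = 0.134), and without the adult rod, at 4.59 (adjusted p = 0.314).

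Prdm1, a zinc finger repressor, was detected in only 1 of the 3 photoreceptors, at 12515 in E1. H1 stood at 78.0 and the adult rod at 387. Outside photoreceptors it was detected in E14.5 ganglion cell E1, at 2430, followed by J6 at 909 and A6 at 476. With the floor, the photoreceptors spanned the whole range of the other cells. Having reached the detection level in fewer than 3 cells it was not tested with the filter, and without a filter its photoreceptor difference was 1.19 ± 0.84 (limma adjusted p = 0.584).

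Rorb, an orphan nuclear receptor, was the most widely detected factor. On the probe set 1439862_at it was 7905 in H1, 3140 in E1 and 1433 in the adult rod, and between 2042 and 16006 in the 6 amacrine cells. It was detected in 8 of 13 ganglion cells, all 6 of E12.5 to E14.5, none of the 3 of E15.5 and 2 of the 4 of P0. The E12.5 ganglion cells reached 8152, above every photoreceptor, and the E15.5 cells lay between 6.19 and 129. The E15.5 cells also had few genes detected, 1518 to 2476, and the part of this in the result was not tested.

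Rorb did not separate the types. Its mean log2 signal was 11.92 in amacrine cells (SD 0.58), 11.38 in photoreceptors (SD 1.27) and 10.27 in ganglion cells (SD 1.81), with overlapping samples. The photoreceptor difference was 0.29 ± 1.45 (limma adjusted p = 0.945). A second probe set, 1425162_at, was detected only in H1, at 3787, and in P0 ganglion cell F1, at 1348. The third, 1455799_at, did not exceed 351 in any cell. Tested without a filter it passed between ganglion and amacrine cells with a difference of -0.19 (limma adjusted p = 0.00206) and in the photoreceptor contrast with -0.093 (adjusted p = 0.0386), on values that lay under the floor in all but 2 amacrine cells.

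Rxrg, a retinoid X receptor known in developing cones, was not detected in any photoreceptor. H1 had 381, E1 had 154 and the adult rod 69.8, and the 6 amacrine cells lay between 41.9 and 316. It was detected in 4 ganglion cells, at 6293 in E12.5 cell F6, 5511 in P0 cell C6, 4231 in P0 cell A3 and 3488 in P0 cell F1. The remaining P0 ganglion cell, A6, had 102, and none of the 6 ganglion cells of E13.5 to E15.5 exceeded 336. Over samples the ganglion minus amacrine difference was 0.75 ± 0.89 (limma adjusted p = 0.999) and the photoreceptor difference was -0.57 ± 0.88 (adjusted p = 0.778).

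Thrb, the thyroid hormone receptor that works in cones, was below the detection level in all 22 cells, with a highest signal of 228 in amacrine cell J6. Its probe set therefore gave no comparison. Esrrb, an oestrogen-related receptor known for its part in rod survival, was detected in the adult rod on 2 of its 3 probe sets, at 2155 and 1219, with 915 on the other. H1 and E1 lay between 42.4 and 207 on all 3. On the first probe set the 13 ganglion cells reached 423 and the 6 amacrine cells 598, so the adult rod stood alone there. On the probe set 1436926_at, E12.5 ganglion cell F3, at 1027, was above the adult rod. Without a filter the photoreceptor difference of Esrrb was 1.04 ± 0.82 (limma adjusted p = 0.589).

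**Figure D2:**
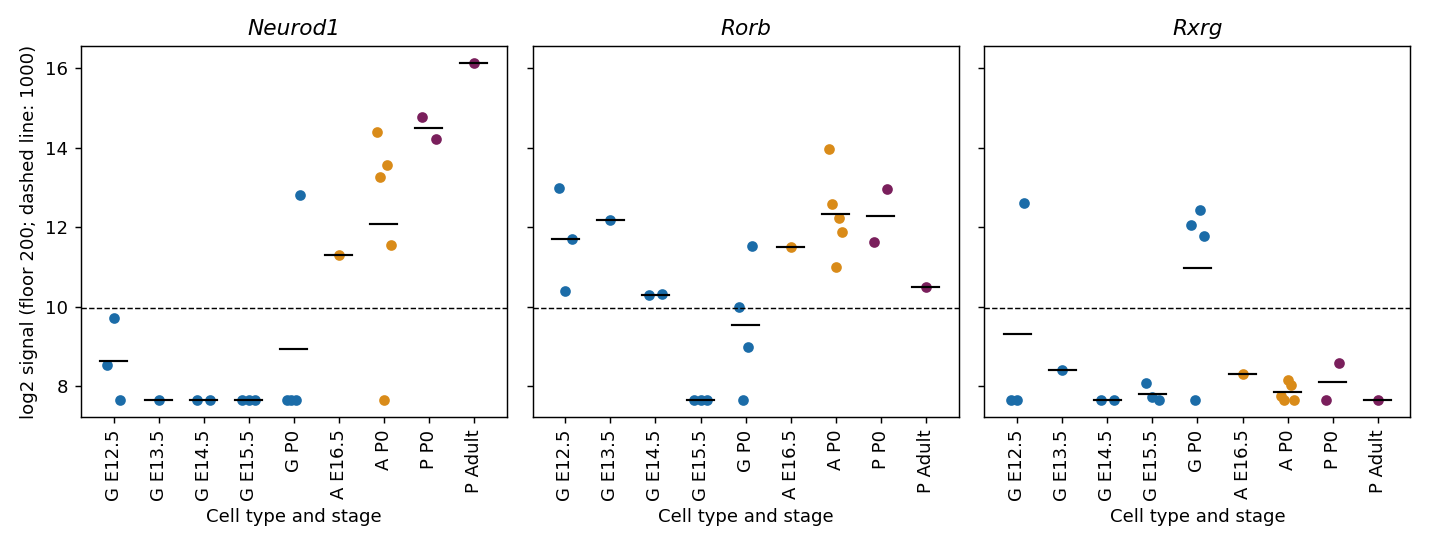
Log2 signal (floor 200) of Neurod1, Rorb and Rxrg in each cell, by cell type (G ganglion, A amacrine, P photoreceptor) and stage; points are cells, short lines are means, and the dashed line is the detection level of 1000. Neurod1 lay above the line in 5 of 6 amacrine cells and all 3 photoreceptors, Rorb fell under it in the 3 ganglion cells of E15.5, and Rxrg was above it in 1 ganglion cell of E12.5 and 3 of P0.

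Crx, Nrl and Neurod1 passed as higher in photoreceptors, and Otx2, Rorb and Rxrg did not pass. Nrl was detected in photoreceptors alone and Crx in these and 1 ganglion cell. The filter thus left Nrl no other direction and Crx hardly any, and the number passing is not read against all genes. Over all 7184 genes tested, 108 were higher in photoreceptors (1.5%) and 44 were lower (0.612%), with a median difference of -0.57. With quantile normalization the calls over all genes were 70 higher and 87 lower. Crx and Nrl then passed, as did Otx2 at 3.27 (adjusted p = 0.0426), and Neurod1 did not at 4.65 (adjusted p = 0.0735). Between ganglion and amacrine cells none of the 6 passed in limma, with Neurod1 alone at an unadjusted p under 0.05, and 5 genes of all tested did (0.0696%; 283 at an unadjusted p under 0.05).

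The adult rod and the P0 photoreceptors can be set side by side but not tested, with 1 adult cell and 2 P0 cells. On the deposited scale Crx was 3.33 higher in the adult rod than in the mean of H1 and E1 on the log2 scale, Nrl 4.47 and Neurod1 1.65. Esrrb was at least 3.41 higher, since E1 was under the floor. Otx2 was lower by at least 81.0-fold, since the adult rod was under the floor, and the Crx probe set 1449185_at by at least 64.5-fold. Rorb differed by -1.80, and Prdm1 by -2.03 with H1 set to the floor. Between the P0 cells themselves, H1 minus E1, Prdm1 differed by -5.97 or more, since H1 was under the floor.

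Some of these directions changed with the scaling. With quantile normalization the adult minus P0 difference was -0.39 for Crx and -1.27 for Neurod1, and it kept its sign for Nrl at 0.97, Otx2 at -6.92, Esrrb at 4.89, Prdm1 at -2.90 and Rorb at -0.38. By rank among the 18194 genes of a cell, where 1 is the highest, Crx was at 75 in the adult rod, 46 in H1 and 16 in E1. Nrl was at 38 in the adult rod, 343 in H1 and 74 in E1. Thus Nrl ranked higher in the adult rod than in either P0 cell and Crx ranked lower.

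Neurod1 ranked 445 in the adult rod, 119 in H1 and 62 in E1, and Otx2 ranked 16758, 487 and 90. Esrrb ranked 924 in the adult rod, 4613 in H1 and 10617 in E1. Of the 7 factors detected in a photoreceptor, 3 were at least 2 log2 units higher in the adult rod, against 34.6% of the 5893 genes so detected, and 2 were at least as far lower, against 35.1%. Their median difference was 1.65 and that of all these genes -1.04, and with quantile normalization these were -0.39 and -1.39. With that scaling 1 factor was at least 2 log2 units higher, against 34.4% of the genes detected, and 2 were as far lower, against 38.6%.

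**Figure D3:**
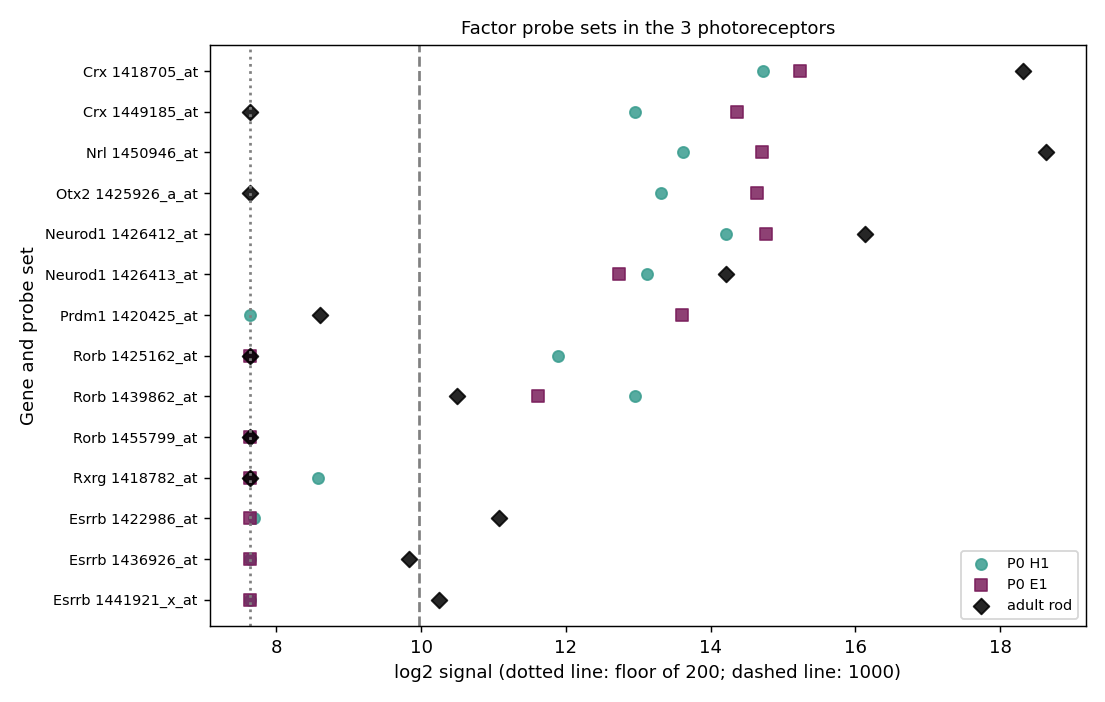
Log2 signal (floor 200, dotted line; detection level 1000, dashed line) of 14 probe sets of the factors in P0 photoreceptors H1 (circles) and E1 (squares) and in the adult rod (diamonds). The adult rod lay highest for Nrl, Neurod1, Esrrb and the first Crx probe set, and at the floor for Otx2 and the second Crx probe set.

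Known targets of the factors were detected mostly in photoreceptors. Of 29 measured target genes of Crx, Nrl and Nr2e3, the adult rod had 26 detected, H1 had 15 and E1 had 10, against 1 to 4 in the ganglion and 1 to 3 in the amacrine cells. The 29 include all 11 photoreceptor markers counted above, so these counts are not separate from the check of the labels. Of all genes, 13.8% were detected in the adult rod, 16.8% in H1 and 12.3% in E1, 8.34% to 23.9% in the ganglion and 10.6% to 22.7% in the amacrine cells. In limma 11 targets were tested and 9 passed as higher in photoreceptors, but 6 of these, Sag, Pde6b, Pdc, Rbp3, Tulp1 and Cdhr1, were detected in no other cell, so the filter fixed their direction and the count is a description only. Rbp3, the retinoid carrier between photoreceptors and pigment epithelium, differed by 9.67 ± 1.38 (adjusted p = 1.54e-08). Pdc, which binds transducin subunits, differed by 9.40 ± 1.37 and Sag, the rod arrestin, by 9.19 ± 1.37. The tetraspanin Rom1 differed by 8.70 ± 1.37, the photoreceptor cadherin Cdhr1 by 8.55 ± 1.36 and the rod phosphodiesterase subunit Pde6b by 8.48 ± 1.34.

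The P0 cells differed in which targets they had. Gnat1, the rod transducin alpha subunit, was at log2 12.46 in H1 and at the floor in E1, against 19.92 in the adult rod. The rod channel subunits Cnga1 and Cngb1 were at 13.77 and 13.87 in H1 and at the floor in E1. Reep6 went the other way, at 13.79 in E1 and at the floor in H1. Aipl1, Pde6a and Guca1a were at the floor in both and at 18.53, 18.45 and 19.10 in the adult rod.

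Among cone genes that Nrl and Nr2e3 are known to hold down in rods, 11 were measured. E1 had 4 of them detected, against 12.3% of all genes in that cell, with Gnb3 at log2 15.03, Ccdc136 at 14.47, Gngt2 at 13.52 and Cngb3 at 12.26. H1 had Gnb3 alone, at 12.55, and the adult rod had Arr3 at 10.38 and Pde6h at 10.61, counts near the 16.8% and 13.8% of all genes in these cells. Neither cone opsin, Opn1sw or Opn1mw, was detected in any cell. Ccdc136 was the only gene of this list tested, with a photoreceptor difference of 0.53 ± 1.38 that did not pass (limma adjusted p = 0.886).

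Cell E1, the only photoreceptor with Prdm1 detected, also had 3 of 10 bipolar genes of the kind Prdm1 holds down, against 12.3% of all genes. These were Pcp2 at log2 14.92, Lhx4 at 13.57 and Cabp5 at 13.14. H1 and the adult rod had none detected, but they were not alike. H1 was at the floor for all 10. The adult rod lay just under the detection level for Lhx4 at log2 9.94, Pcp2 at 9.88 and Gng13 at 9.84. It had Vsx1 at 9.51, Car8 at 9.28 and Cabp5 at 8.63, with the others at the floor. Over the 7 measured bipolar markers the summed signal was 52419 in E1, 641 in H1 and 3312 in the adult rod, against 416 to 6503 in ganglion and 325 to 33401 in amacrine cells. Vsx1, Trpm1 and Bhlhe23 were not detected in E1. Of the 2 bipolar genes tested against ganglion and amacrine cells, Isl1 and Prkca, none passed (limma adjusted p = 0.0619 and 0.684). Their photoreceptor differences were -4.59 and -0.63. Isl1 is also a ganglion marker, detected in 10 of 13 ganglion cells, 3 of 6 amacrine cells and no photoreceptor. Its difference therefore does not describe bipolar genes in photoreceptors.

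**Figure D4:**
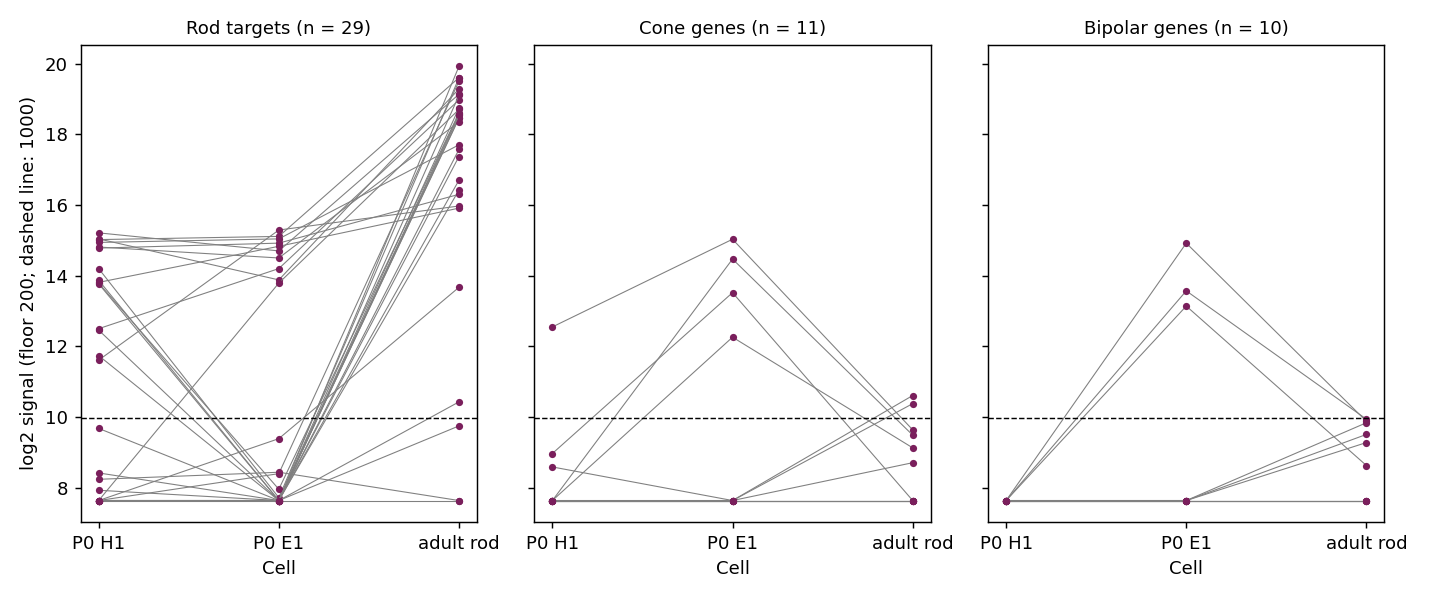
Log2 signal (floor 200; dashed line, detection level 1000) of 29 rod targets, 11 cone genes and 10 bipolar genes in P0 photoreceptors H1 and E1 and in the adult rod; each line joins 1 gene. The adult rod had 26 rod targets above the line, H1 15 and E1 10, while 4 cone and 3 bipolar genes were above the line in E1.

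Other cell types' markers also differed between the photoreceptors. H1 had 5 of 7 glial markers detected, with a summed signal of 51693, and E1 had none, with 582. Ganglion cells had 1 to 4 of the 7, with sums of 1982 to 91623, and amacrine cells 1 to 4, with 2164 to 49641. Of all genes, 16.8% were detected in H1, 12.3% in E1 and 13.8% in the adult rod. The adult rod had Clu alone, with a summed glial signal of 247164, and 3 of 6 horizontal cell markers, Lhx1, Onecut1 and Septin4. The horizontal list summed to 422343 there, the highest in the 22 cells. Its mean over the 6 genes was log2 10.55 and Onecut1 was at 10.78, near the detection level, so the sum does not stand for all 6. Septin4 was also detected in E1 and in some ganglion and amacrine cells. Of the 11 progenitor and cell cycle markers H1 had 5, the adult rod 3 and E1 1, and Mki67 and Top2a were detected in none of the 3. Of the 6 pigment epithelium markers H1 had Pmel and E1 had Dct, and Rpe65 and Tyr were not detected. The part of these transcripts in the differences between H1, E1 and the adult rod was not tested.

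Of 18 measured genes that act before or beside the factors, 9 were tested and 1 was higher in photoreceptors in limma, Mef2d, a partner of Crx in photoreceptor gene activation. It differed by 6.31 ± 1.37 (adjusted p = 0.001), with log2 17.38 in the adult rod, 13.82 in E1 and 10.77 in H1. Sox4, of the early neuronal programme, was lower by a difference of -5.20 ± 1.26 (adjusted p = 0.00448), and the eye field factor Pax6 by -5.14 ± 1.28 (adjusted p = 0.00674). Both were at the floor in E1 and the adult rod, but H1 had Sox4 at 14.89 and Pax6 at 13.90, so the P0 cells differed from each other in both. Neurod4, a relative of Neurod1, was detected in E1 alone, at 14.66.

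Of 16 measured relatives of the factors, 7 were tested and none passed in the photoreceptor contrast (limma, adjusted p from 0.315 to 0.977). Rxra, the relative of Rxrg, was at 12.12 in H1 and 12.26 in E1 and 8.70 in the adult rod, with a difference of 2.26 ± 1.02. Rora, the relative of Rorb, was at 11.99 in H1, at the floor in E1 and at 7.98 in the adult rod. Thra, the relative of Thrb, was detected in both P0 cells, at 11.65 in H1 and 13.89 in E1, in 9 of 13 ganglion and in 5 of 6 amacrine cells, but was at the floor in the adult rod. The orphan receptor Nr2f1 was at 13.54 in E1 and at the floor in H1 and the adult rod, Nr2f2 and Esrra were detected in no photoreceptor, and Rxrb in H1 alone, at 12.21.

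Traces of the factors in ganglion and amacrine cells were as common as those of genes at large. Of 171 pairs of a factor and a ganglion or amacrine cell, 28 were detected (16.4%), against 16.5% of all pairs of a gene and such a cell. Rorb made up 14 of the 28, Neurod1 6 and Rxrg 4. Crx, Otx2 and Prdm1 made up the remaining 4, and Nrl, Thrb and Esrrb had none on their representative probe sets. By gene, 6 of the 9 measured factors were detected in at least 1 ganglion or amacrine cell, against 53.7% of all genes.

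Of those 4 traces of Crx, Otx2 and Prdm1 3 lay in 1 cell, E14.5 ganglion cell E1, and the remaining one was Otx2 in E12.5 cell E4. With Rorb, the E14.5 cell had 4 of 9 factors detected, the most of any cell outside photoreceptors, and 22.7% of all genes were detected in it. Its Crx detection rested on 1418705_at, with 251 on 1449185_at. Its Rorb detection rested on 1439862_at, with 4.31 on 1425162_at and 21.2 on 1455799_at. Its Nrl signal was 36.3 and its Neurod1 signal 29.5. Of 11 photoreceptor markers none was detected there, with a summed signal of 459 against 182512 or more in the photoreceptors, and of 8 cone markers Gnat2 was, at log2 11.63. Of the 29 rod targets, which include those 11 photoreceptor markers, it had 3 detected, Gnb1, Unc119 and Reep6. Reep6, at 11.78, was detected in 2 ganglion cells, this one and E12.5 cell E4, which are also the 2 with Otx2.

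The same cell had 7 of 9 ganglion markers, with Pou4f1 and Slc17a6 not detected, and the lowest summed ganglion marker signal of the 13, 79944 in a range up to 288551. It also had 9 of 11 progenitor and cell cycle markers, Mki67, Top2a and Cdk1 among them, with a summed signal of 109055, the highest of all 22 cells. Its stage mate D8 had 6 of 11, with 37594, and of the factors only Rorb. The other 11 ganglion cells had 0 to 3 of 11. The part of these transcripts in the Crx, Otx2 and Prdm1 signals was not tested. Of the 4137 genes detected in this cell, 234 (5.66%) were detected in no other ganglion or amacrine cell.

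**Figure D5:**
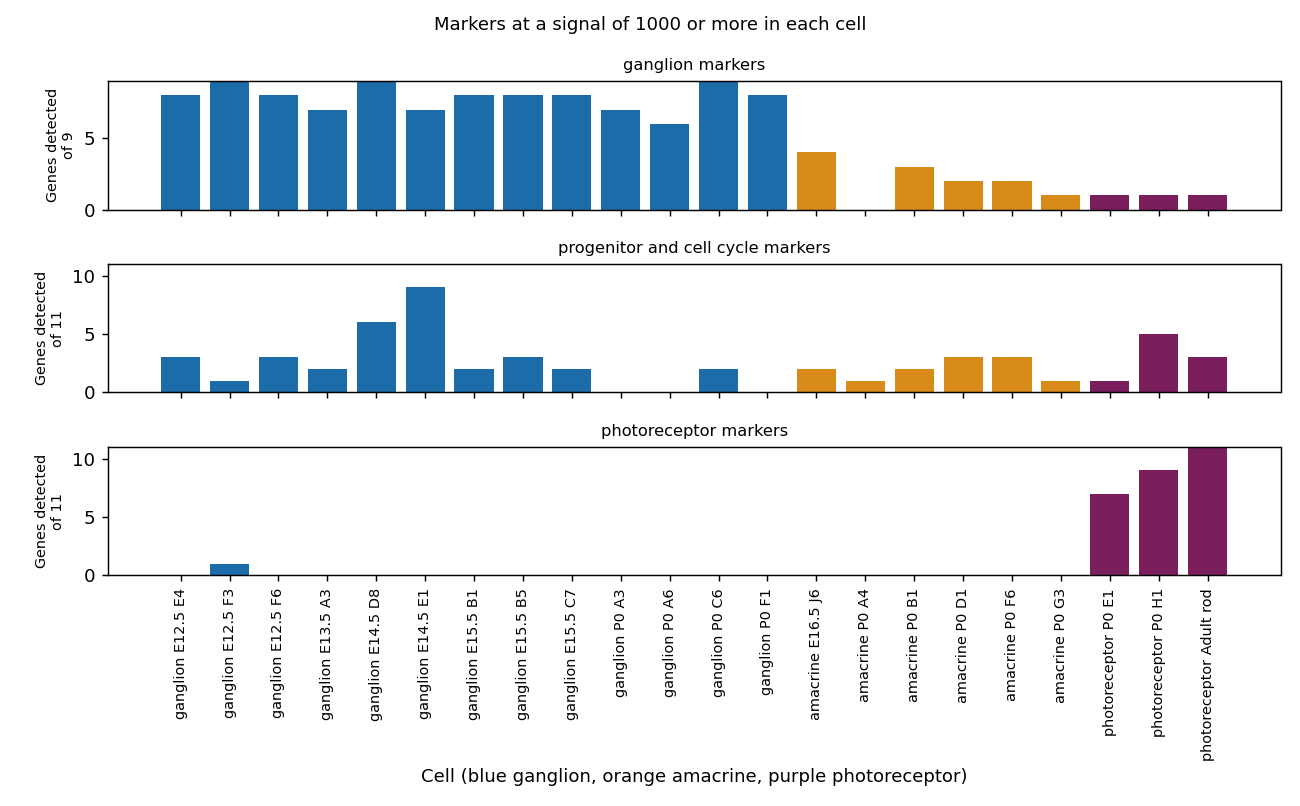
Number of ganglion markers (of 9), progenitor and cell cycle markers (of 11) and photoreceptor markers (of 11) at a signal of 1000 or more in each of the 22 cells; bars are blue for ganglion, orange for amacrine and purple for photoreceptor cells. E14.5 ganglion cell E1 had 7 ganglion and 9 progenitor and cell cycle markers and no photoreceptor marker.

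The genes whose pattern over the 22 cells was most like that of a factor are given by Pearson's r of log2 signal, as a description. For Crx these were Cdhr1 (r = 0.955), Pdc (0.946) and Rbp3 (0.945), and for Nrl they were Rbp3 (0.998), Pdc (0.996) and Pde6b (0.995). With most cells at the floor, such values rest on 3 photoreceptors. For Otx2 they were Cnih4 (0.913), Wdr66 (0.892) and Scarb1 (0.851), resting on 3 or 4 cells.

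Neurod1 and Rorb, detected in more cells, had looser companions. The highest for Neurod1 were Laptm4b (r = 0.780), Suz12 (0.773) and Snhg14 (0.737), and for Rorb Mir124a-1hg (0.817), a host gene of the neuronal microRNA miR-124, Gpm6b (0.757) and Cdc42se2 (0.740). All 13 cells with Mir124a-1hg detected had Rorb detected too. For Rxrg they were Ablim3 (0.963), Kif13a (0.945) and Shb (0.939), and Ablim3 and Shb were detected in the same 4 ganglion cells as Rxrg. Among the factors themselves the highest value was 0.94 for Crx with Nrl, followed by 0.65 for Nrl with Neurod1 and 0.61 for Crx with Otx2.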

How the data were processed

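The authors computed the deposited signal intensities with MAS5, per the submitters' processing notes; per the labels' protocols, the cDNA of each cell was primed with oligo dT and amplified by PCR before labelling. On 21 of 22 arrays the 2% trimmed mean was 500; that of P0 amacrine cell B1 was 18.1 and was multiplied by 27.6. After a floor of 200, log2 was taken. Each of 18194 genes was read from its brightest probe set by mean over the cells, named from the platform annotation (34958 probe sets with 1 symbol, 932 with several, 9211 with none), and the 7184 genes at 1000 or more in at least 3 cells were tested. Cells of a type and stage were averaged into 9 samples. In R 4.3.3, lmFit and eBayes (trend) of limma 3.58.1 fitted 1 mean per type, with 6 residual degrees of freedom; the prior degrees of freedom were infinite, so the spread of a gene came from the trend. P-values were adjusted by Benjamini-Hochberg over all genes tested, at a threshold of 0.05. The fit was tested on simulated data. Stage was not modelled, since only P0 had every type. The highest correlation of log2 signal between any 2 arrays was 0.700, so no 2 arrays held the same values.

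The factors and gene lists were chosen with earlier results of these data known. Named besides the factors are the 3 tested genes most like each tested factor, up to 6 passing genes of each list by size, and tested relatives; other list genes were chosen after their values were seen. Promoter sequences and names come from RefSeq. Nr2e3 had no listed probe set and, like some list genes, was not analysed here. Other floors, scaling, filters, probe set rules, variance models, sample definitions and the omission of each cell were tried. The number of arrays limits the precision.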

Additional observations from a re-analysis of the deposited data

Results flagged for a closer look

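In 18 groups of 4 or 5 P0 cells, 1 for each measured factor in the ganglion and in the amacrine cells, 5 had a cell far from the others. Chance gives about 5% of groups where values are not tied, but for Crx, Nrl, Prdm1 and Neurod1 the other 3 cells lay together at the floor, so that any value above it stands apart and this share does not apply. Of the 5, 4 concern P0 ganglion cell A6, whose array had a median signal of 79.1 over all probe sets, the highest among the ganglion cells. A6 was above the other 3 P0 ganglion cells for Crx, at log2 9.88 against 7.64, for Prdm1, at 8.90 against 7.64, and for Nrl, at 7.67 against 7.64, a gap of next to nothing. None of the 3 reached the detection level in A6. For Rxrg, A6 lay below the others, at 7.64 against 11.77 for the nearest. The last was P0 ganglion cell F1 for Neurod1, at 12.81 against 7.64 for the other 3, and F1 had 4352 genes detected, the most of any cell. The part of array level and of detected genes in these gaps was not tested.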

How the results depend on the processing

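Crx and Nrl, on their representative probe sets, kept their direction and their call in the photoreceptor contrast under each alternative in which they were tested. With the filter both entered the test through the photoreceptors, with Crx detected besides in 1 ganglion cell, so this constancy is not independent support. With no filter they passed too (limma adjusted p = 0.0239 and 0.0293). Nrl could not be tested without any 1 of the photoreceptors, since it was then detected in fewer than 3 cells. The number of factors passing was 2 to 4. Rorb turned to -0.043 without P0 photoreceptor H1 and ranged up to 1.19 when single cells were left out. Neurod1 lost its call with medians over cells, at 5.27 (adjusted p = 0.0784), besides the settings given above, and over all its alternatives the adjusted p ranged from 0.00758 to 0.314. Otx2 gained a call with each cell as a sample, at 4.01 (limma adjusted p = 0.00436), and its adjusted p reached 0.555 with gene-wise variances. That of Crx reached 0.0257 and that of Nrl 0.0313 with gene-wise variances. With single probe sets and no filter together these were 0.0295 and 0.0365 (limma), and the second Crx probe set did not pass, at 0.356. The 152 genes passing in the photoreceptor contrast became 44 with the mean over probe sets, 233 with every probe set tested, 56 with no filter, 51 with gene-wise variances and 47 with medians over cells, where the direction of the calls was 25 higher and 22 lower. Without single cells it was 44 (without amacrine cell J6) to 161, and 66 without the adult rod. The 5 genes passing between ganglion and amacrine cells became 1 with a floor of 400, the mean over probe sets or every probe set tested, 10 with quantile normalization, 31 with no filter, 2 with detection in at least 2 cells, 8 with gene-wise variances, 22 with each cell as a sample and 0 with medians over cells (limma; 264 at an unadjusted p under 0.05). Without single cells it was 1 to 9. No factor passed between ganglion and amacrine cells in any of these; with single probe sets and no filter together, 1 Rorb probe set under the detection level did, as given above. The median adult minus P0 difference of the factors, 1.65, reversed to -0.39 with quantile normalization and to -1.31 with the mean over probe sets, where the Crx probe sets are averaged, and was 1.37 to 1.93 without 1 P0 cell. The traces numbered 28, and 34 at a level of 500, 22 at 2000, 28 with quantile normalization and 29 with any probe set. No paired analysis was possible because the labels give the cells no replicate numbers shared between groups. A signal under the floor bounds a level and does not show absence, and each array is 1 amplified cell, with no repeat of any cell to separate amplification from biology.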
